A study of Mus musculus with 6 samples.

Results

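The genes described here are 10 of the 47643 gene identifiers that were counted, and they were taken by symbol as the parts of the SARM1-NMNAT and DLK-JNK routes. They are Sarm1, Nmnat1, Nmnat2 and Nampt on the NAD side, and Map3k12, Map3k13, Map2k4, Mapk8, Mapk9 and Mapk10 on the kinase side. All 10 passed the filter on low counts. The 6 libraries were made from total RNA of dorsal root ganglia taken on embryonic day 13 from CD-1 mice, depleted of ribosomal RNA. The shUHRF1 group held 3 libraries of cells treated with a lentivirus carrying a hairpin against Uhrf1, and the shControl group held 3 libraries of cells treated with a control hairpin lentivirus. The study asked how transcription in uninjured neurons differs after knockdown of Uhrf1, whose protein reads hemimethylated DNA and brings in the maintenance methyltransferase DNMT1. Replicates carry the numbers 1 to 3 in both groups, but whether they are separate cultures is not stated, so the p-values cover a spread that may be technical only. The labels give 1 hairpin name per group, and a lentivirus can enter both neurons and other ganglion cells.

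An injured axon can be dismantled from within. SARM1 is an enzyme that destroys NAD and drives this dismantling, and it is held in check as long as the short-lived axonal enzyme NMNAT2 keeps turning NMN into NAD. NAMPT makes that NMN from nicotinamide, and NMNAT1 makes NAD in the nucleus. In parallel, the kinase DLK (Map3k12) and its close relative LZK (Map3k13) report injury to the cell body. They phosphorylate the kinase MKK4 (Map2k4), which activates the c-Jun N-terminal kinases JNK1 (Mapk8), JNK2 (Mapk9) and JNK3 (Mapk10). In sensory neurons this route is known both for switching on regeneration genes and for promoting degeneration.

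The libraries held 15599776 to 22382813 reads in genes. Uhrf1 itself had 2, 1 and 5 reads in shUHRF1 replicates 1, 2 and 3 and 8, 6 and 5 reads in shControl replicates 1, 2 and 3, too few to resolve the knockdown (edgeR adjusted p = 0.141 with the gene kept in the fit). Across all genes, 3735 of 15573 tested (24.0%) were called by edgeR at an adjusted p below 0.05, with 1807 higher and 1928 lower in shUHRF1. With upper-quartile scaling the split was 2512 higher and 1378 lower, and the all-gene median on the log2 scale was 0.142, against 0.0165 with the TMM scaling used here. The count of calls was 2171 (13.7% of tested genes) without shUHRF1 replicate 3, 2018 (12.2%) without shControl replicate 1 and 1768 (10.9%) without shControl replicate 3. All 16 neuronal markers were detected, at a summed 20441 to 25921 CPM in shUHRF1 and 26069 to 30321 CPM in shControl, and of them Tubb3 alone was called, lower in shUHRF1 (with the replicate number as a block, 1 was higher and 3 were lower; Tubb3 was not called without shUHRF1 replicate 3, shControl replicate 1 or shControl replicate 3). Of 12 fibroblast markers 10 were tested and 9 rose (median log2 fold change 3.51). The 12 summed to 88.7 to 196 CPM in shUHRF1 against 17.7 to 22.0 CPM in shControl. Of 12 macrophage markers 8 were tested and 5 rose (median 2.02). Those 12 summed to 17.4 to 45.2 CPM in shUHRF1 against 6.34 to 12.5 CPM in shControl. Only 3 macrophage markers rose without any 1 of shUHRF1 replicates 2 and 3 and shControl replicates 2 and 3. Of 16 glial markers 13 were tested, 8 rose and 1 fell (median log2 fold change 2.83). The 16 summed to 1093 to 2268 CPM in shUHRF1 and 1920 to 2717 CPM in shControl. Abundant genes weigh most in that sum. The mean log2 of CPM plus 1 over the 16 was 2.925 to 3.71 in shUHRF1 and 2.766 to 2.87 in shControl. Of the 16, 10 had a mean under 1 CPM in shControl and 4 in shUHRF1. No marker of these lists was at 0 reads throughout a group. The part of these cells in the results below was not tested. More or fewer cells of a type cannot be told apart from more or less RNA per cell.

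Of the 10 genes, Map3k13 and Nmnat2 rose in shUHRF1, Map2k4 and Mapk9 fell, and the other 6 did not pass edgeR's test. These 4 calls of 10 stand beside 24.0% of all tested genes. The same 4 genes had groups that did not overlap, which held for 44.0% of all tested genes (21.7% with shUHRF1 higher and 22.3% with shUHRF1 lower). The median log2 fold change of the 10 genes was 0.013.

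**Figure D1:**
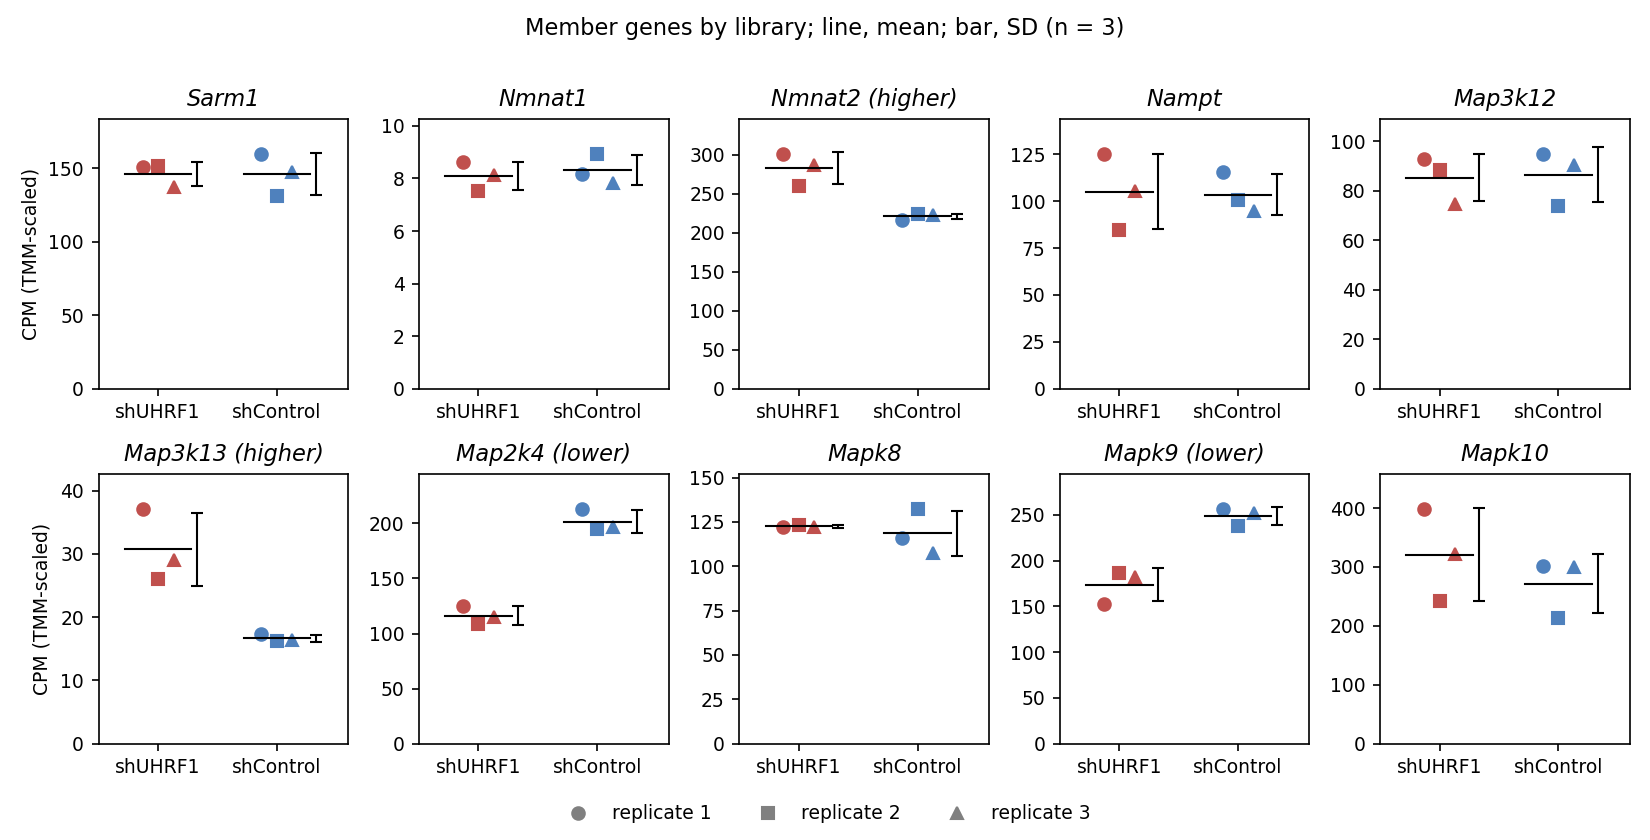
Levels of the 10 genes in CPM (y axes, each from 0) in the 3 shUHRF1 libraries (left, red) and the 3 shControl libraries (right, blue); symbols mark the replicate number, the line the mean and the bar the SD. The groups are separate for Nmnat2, Map3k13, Map2k4 and Mapk9 and overlap for the other genes.

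On the NAD side, Nmnat2 (ENSMUSG00000042751.14, chromosome 1, 152954993 to 153119261, plus strand, GRCm38) had 301, 260.5 and 287 CPM in shUHRF1 replicates 1, 2 and 3, against 217, 224 and 223 CPM in shControl replicates 1, 2 and 3. Every shUHRF1 library lay above every shControl library, and the shControl libraries lay close together. The mean was 283 ± 20.7 CPM in shUHRF1 and 221 ± 3.77 CPM in shControl (SD, n = 3 each), a 1.28-fold difference with a 95% interval of 1.08 to 1.51. The log2 fold change was 0.36 ± 0.10 (SE) with an edgeR adjusted p of 0.041. This call was near the threshold and was lost without any 1 of shUHRF1 replicates 1 and 3 and shControl replicates 1, 2 and 3 (edgeR adjusted p of 0.0782, 0.128, 0.159, 0.0988 and 0.131, in that order), on library pairs 1 and 3 alone (0.0654) and with no filter on low counts (0.144). Its log2 fold change was 0.31 to 0.48 in all 14 other settings.

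Sarm1 (ENSMUSG00000050132.13, chromosome 11, 78472330 to 78497754, minus strand), the executioner that NMNAT2 restrains, had 151, 151 and 137 CPM in shUHRF1 replicates 1, 2 and 3, against 159.9, 131 and 147 CPM in shControl. The groups overlapped, with a log2 fold change of 0.0033 ± 0.11 (SE), a 95% interval of -0.26 to 0.27 and an edgeR adjusted p of 0.988. The interval therefore leaves room for a fold of 0.835 to 1.2. Nampt (ENSMUSG00000020572.7, chromosome 12, 32819545 to 32853349, plus strand), which supplies the substrate of the NMNAT enzymes, had 125, 84.7 and 105 CPM in shUHRF1 and 116, 100.4 and 94.5 CPM in shControl. Its shUHRF1 libraries spanned the whole shControl range (log2 fold change 0.023, 95% interval -0.34 to 0.39, edgeR adjusted p = 0.937). The nuclear enzyme Nmnat1 (ENSMUSG00000028992.13, chromosome 4, 149467572 to 149485202, minus strand) was rare, at 8.62, 7.54 and 8.14 CPM in shUHRF1 and 8.19, 8.93 and 7.84 CPM in shControl. It rested on 128 to 192 reads per library, and its groups overlapped (log2 fold change -0.037, 95% interval -0.41 to 0.34, edgeR adjusted p = 0.896).

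At the top of the kinase route LZK was called and DLK was not. Map3k13 (ENSMUSG00000033618.6, chromosome 16, 21794346 to 21933439, plus strand), which encodes LZK, had 37.1, 26.0 and 29.1 CPM in shUHRF1 replicates 1, 2 and 3, against 17.3, 16.2 and 16.4 CPM in shControl. All shUHRF1 libraries lay above all shControl libraries, and replicate 1 was the highest in both groups. The mean was 30.7 ± 5.76 CPM in shUHRF1 and 16.6 ± 0.581 CPM in shControl (SD, n = 3 each), a 1.85-fold difference with a 95% interval of 1.43 to 2.38. The log2 fold change was 0.89 ± 0.16 (SE) with an edgeR adjusted p of 0.0072, and the call held in all 14 other settings, at log2 fold changes of 0.72 to 1.01 and adjusted p up to 0.0377. Of its 8714 exonic bases, 2.61% lie in exons of the lincRNA 1300002E11Rik on the same strand, so a small part of its count is uncertain.

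Map3k12 (ENSMUSG00000023050.8, chromosome 15, 102497646 to 102517064, minus strand), which encodes DLK, had 93.0, 88.3 and 74.8 CPM in shUHRF1 and 94.9, 73.9 and 90.5 CPM in shControl. The groups overlapped fully, with a log2 fold change of -0.018 ± 0.14 (SE), a 95% interval of -0.34 to 0.30 and an edgeR adjusted p of 0.944. Exons of Pcbp2 on the opposite strand overlap 17.5% of its exonic bases, and the strand setting of the counting is not given in the sources used here, so its level is uncertain.

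One step down, Map2k4 (ENSMUSG00000033352.11, chromosome 11, 65688243 to 65788297, minus strand), the MKK4 kinase that receives the signal from DLK and LZK, had 125, 109 and 115 CPM in shUHRF1 replicates 1, 2 and 3, against 213, 195 and 197 CPM in shControl. The highest shUHRF1 library lay well below the lowest shControl library, and the libraries of each group lay close together. The mean was 116 ± 8.36 CPM in shUHRF1 and 202 ± 10.1 CPM in shControl (SD, n = 3 each), a fold of 0.577 with a 95% interval of 0.486 to 0.684. The log2 fold change was -0.79 ± 0.11 (SE) with an edgeR adjusted p of 0.00247. It had the smallest p of the 10 genes and was called in all 14 other settings, at log2 fold changes of -0.85 to -0.67.

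Of the JNK genes Mapk9 was called and Mapk8 and Mapk10 were not. Mapk9 (ENSMUSG00000020366.18, chromosome 11, 49846751 to 49886421, plus strand), which encodes JNK2, had 153, 187 and 182 CPM in shUHRF1 replicates 1, 2 and 3, against 257, 238 and 253 CPM in shControl. The groups were separate, and shUHRF1 replicate 1 was the lowest library. The mean was 174 ± 18.4 CPM in shUHRF1 and 249 ± 9.91 CPM in shControl (SD, n = 3 each), a fold of 0.698 with a 95% interval of 0.580 to 0.840, a log2 fold change of -0.52 ± 0.12 (SE) and an edgeR adjusted p of 0.016. The call was lost without shControl replicate 1 (adjusted p = 0.0606) and without shControl replicate 3 (0.0617), at log2 fold changes of -0.52 in both.

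Mapk8 (ENSMUSG00000021936.13, chromosome 14, 33377898 to 33447158, minus strand), which encodes JNK1, had 122, 123 and 122 CPM in shUHRF1 and 116, 132 and 107 CPM in shControl. The shUHRF1 libraries were nearly equal and lay inside the shControl range (log2 fold change 0.049, 95% interval -0.21 to 0.31, edgeR adjusted p = 0.795). Mapk10 (ENSMUSG00000046709.16, chromosome 5, 102907948 to 103211334, minus strand), which encodes the mainly neuronal JNK3, had 399, 242 and 322 CPM in shUHRF1 and 302, 214 and 299 CPM in shControl. It had the widest standard error of the 10 genes (0.21), and the groups overlapped (log2 fold change 0.24, 95% interval -0.24 to 0.72, edgeR adjusted p = 0.447). Within same-numbered libraries its log2 ratio of shUHRF1 to shControl was 0.40, 0.18 and 0.11, and the adjusted p with the replicate block was 0.168. Its log2 fold change was 0.050 without shUHRF1 replicate 1 and 0.077 without shControl replicate 2.

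**Figure D2:**
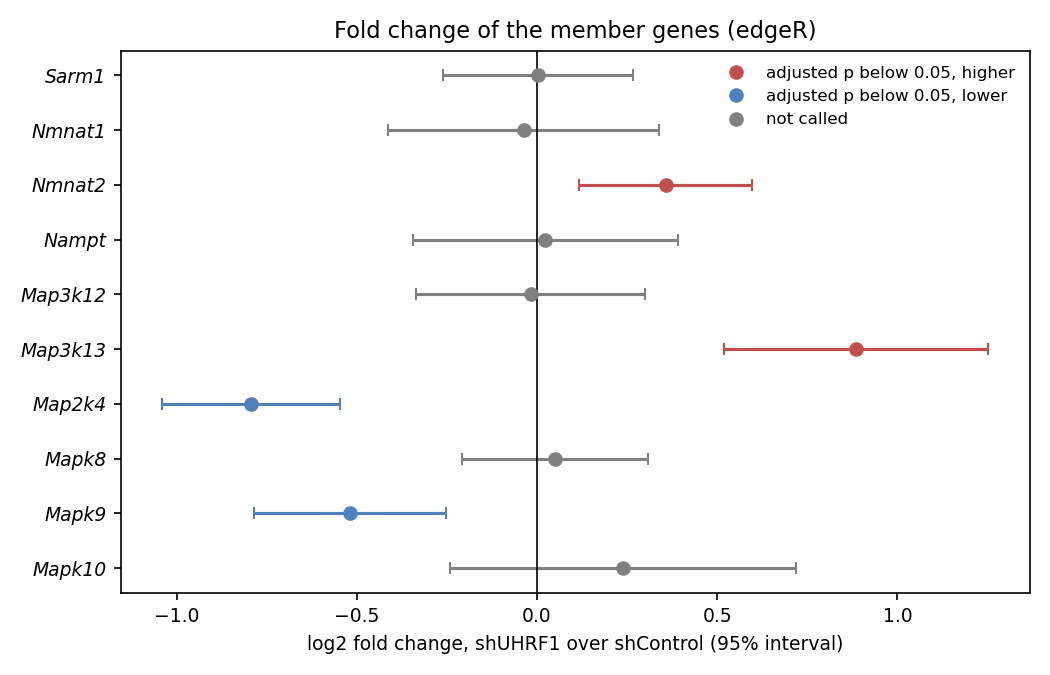
Log2 fold change of shUHRF1 over shControl (x axis) for each of the 10 genes, with its 95% interval from the edgeR fit; red and blue mark genes called higher and lower. Map3k13 at 0.89 and Map2k4 at -0.79 lie farthest from 0, and the intervals of Sarm1, Nmnat1, Nampt, Map3k12, Mapk8 and Mapk10 include 0.

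**Figure D3:**
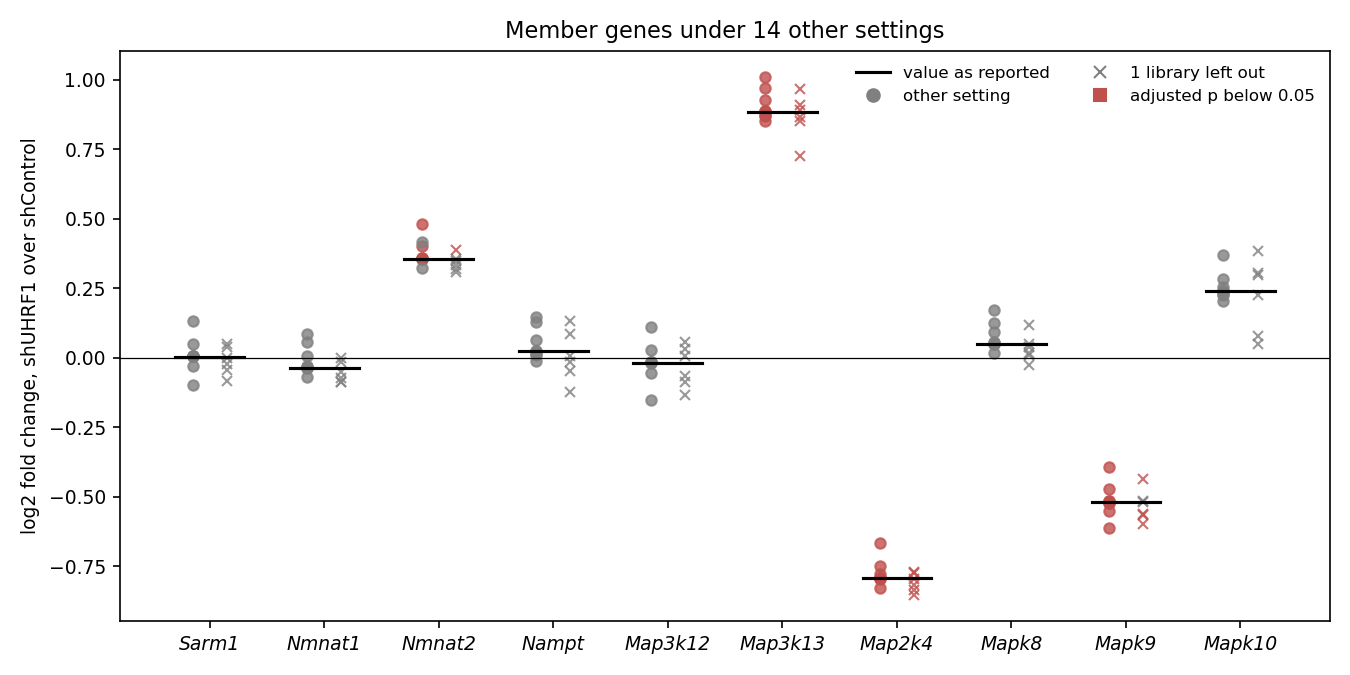
Log2 fold change of shUHRF1 over shControl (y axis) for each of the 10 genes: the black line is the value reported, dots are other processing settings and crosses leave out 1 library, with red for an adjusted p below 0.05. Map3k13 (0.72 to 1.01) and Map2k4 (-0.85 to -0.67) stay red throughout, and Nmnat2 is red in 7 of 14.

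Divided by exonic length, so that genes can be set beside each other, Nmnat2 had the highest level in shUHRF1, at 48.9 ± 3.58 CPM per exonic kilobase (SD, n = 3), whereas Map2k4 was highest in shControl, at 43.2 ± 2.17. In shUHRF1 Mapk10, Sarm1, Mapk9, Map2k4 and Nampt followed at means of 28.8, 26.0, 25.6, 24.9 and 20.8 CPM per exonic kilobase, and each of these overlapped the next in its range over libraries. Mapk8, Map3k12, Map3k13 and Nmnat1 came last in shUHRF1, at 10.7, 9.50, 3.53 and 2.67 CPM per exonic kilobase, with no overlap between neighbours. In shControl, Nmnat2 and Mapk9 stood next to Map2k4, at 38.2 and 36.7 CPM per exonic kilobase, and those 2 overlapped. Sarm1, Mapk10 and Nampt followed in shControl at 26.0, 24.4 and 20.5 with overlapping neighbours, then Mapk8 and Map3k12 at 10.4 and 9.62, which overlapped too. Nmnat1 at 2.74 and Map3k13 at 1.91 CPM per exonic kilobase closed the shControl order without overlap, so the rarest of the 10 genes was Nmnat1 in shUHRF1 and Map3k13 in shControl. These levels assume reads spread over all annotated exons.

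Ratios within a library do not depend on how libraries are scaled. The level of Map3k12 relative to Map3k13, per exonic kilobase, had a geometric mean of 2.71 in shUHRF1, with libraries between 2.43 and 3.29, against 5.0 in shControl, with libraries between 4.4 and 5.36. DLK transcripts thus stayed above LZK transcripts in all 6 libraries, by a smaller margin in every shUHRF1 library. The ratio of Nmnat2 to Sarm1 was 1.88 (1.68 to 2.04) in shUHRF1 and 1.48 (1.32 to 1.66) in shControl, and that of Nmnat2 to Nmnat1 was 18.3 (18.1 to 18.5) in shUHRF1 and 13.9 (13.1 to 14.9) in shControl. Neither pair of ranges overlapped. For Nmnat2 to Sarm1 they nearly touched, at 1.68 in shUHRF1 replicate 2 and 1.66 in shControl replicate 2. The ratio of Nampt to Sarm1 was 0.790 (0.624 to 0.923) in shUHRF1 and 0.789 (0.715 to 0.852) in shControl, and it overlapped.

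Of the summed JNK level, Mapk9 held 32.6%, 45.9% and 40.4% in shUHRF1 replicates 1, 2 and 3, against 50.3%, 53.3% and 50.7% in shControl. Its share was lower in every shUHRF1 library, by 11.8 percentage points on average. Mapk10 held 43.9% ± 7.87 in shUHRF1 and 34.0% ± 4.17 in shControl, and Mapk8 held 16.5% ± 1.30 in shUHRF1 and 14.6% ± 2.60 in shControl (SD, n = 3 each), with overlapping libraries for both. The Mapk10 difference of 9.91 percentage points was 5.90 without shUHRF1 replicate 1. Two-sided exact permutation tests were run on these 7 ratios and shares. The exact permutation p was 0.1, the smallest that 3 against 3 libraries allow, for the Mapk9 share and for the 3 ratios whose ranges were separate, and 0.175 after Benjamini-Hochberg adjustment over the 7. The exact permutation p was 0.2 for the Mapk10 share, 0.3 for the Mapk8 share and 0.9 for Nampt to Sarm1.

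**Figure D4:**
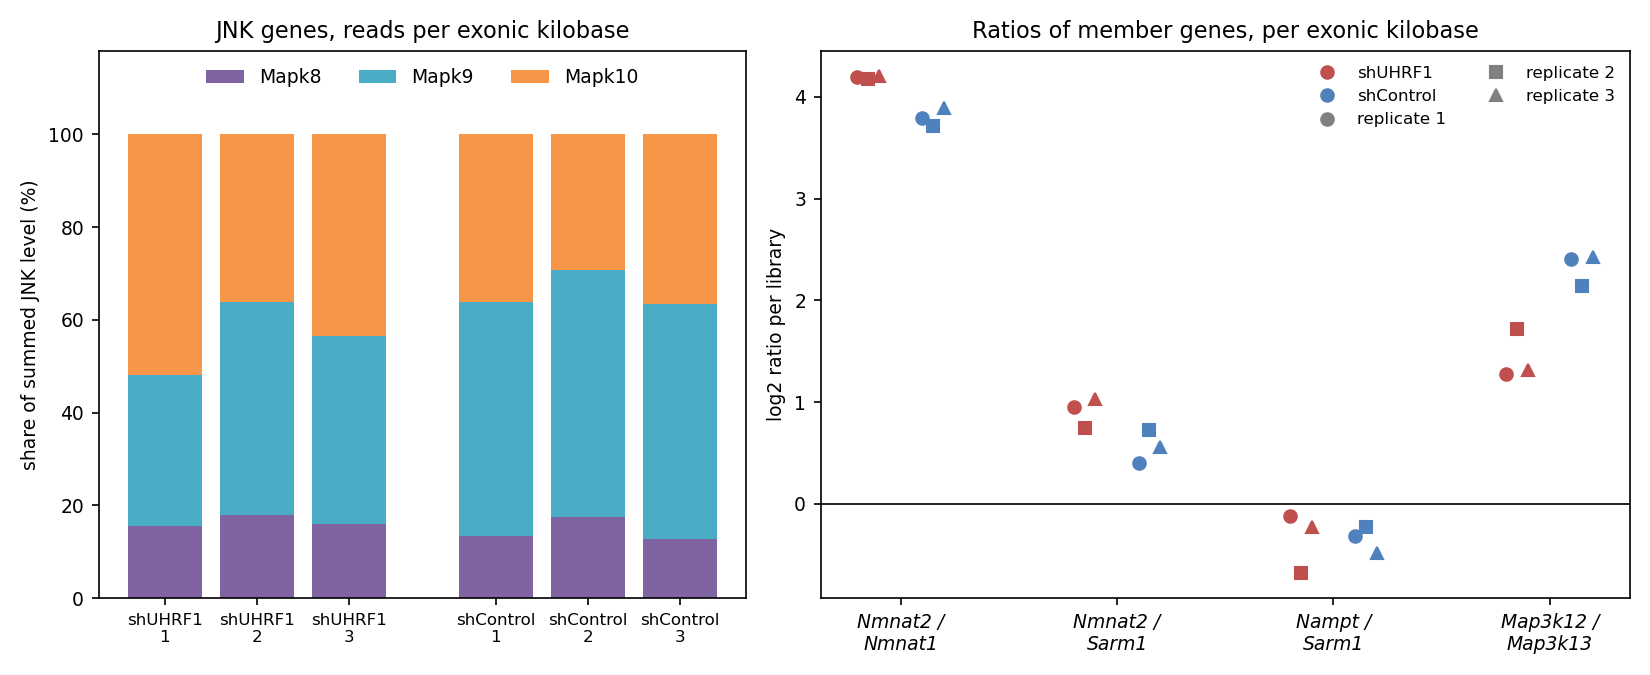
Left, stacked shares (%) of Mapk8, Mapk9 and Mapk10 in the summed JNK level of each library, in reads per exonic kilobase; right, log2 ratios of member genes per library, with the symbol marking the replicate number. The Mapk9 share is 32.6% to 45.9% in shUHRF1 and 50.3% to 53.3% in shControl, and the ratios of Nmnat2 to Nmnat1, Nmnat2 to Sarm1 and Map3k12 to Map3k13 separate the groups.

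The promoter windows of the 4 called genes are shown because UHRF1 binds hemimethylated CpG dinucleotides. They come from RefSeq on GRCm38.p6, run from 250 bases before to 50 bases after an annotated start on the gene's strand, and carry CpGs in capitals. The Map3k13 window, from 21891719, lies at a start inside the gene as GENCODE draws it, which begins at 21794346 on the same strand. No window covered that upstream end, so the Map3k13 counts below do not describe it. The Map2k4 window lies at a start upstream of its GENCODE start. Map2k4 has another annotated start, whose window (chr11:65745807-65746106) is not shown.
Nmnat2, plus strand, chr1:152954851-152955150: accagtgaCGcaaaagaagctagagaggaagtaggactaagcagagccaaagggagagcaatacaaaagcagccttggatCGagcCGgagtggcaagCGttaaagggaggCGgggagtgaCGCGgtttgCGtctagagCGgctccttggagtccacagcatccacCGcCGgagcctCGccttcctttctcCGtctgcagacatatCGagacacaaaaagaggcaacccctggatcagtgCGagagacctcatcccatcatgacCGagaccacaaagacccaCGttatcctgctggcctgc
Map3k13, plus strand, chr16:21891719-21892018: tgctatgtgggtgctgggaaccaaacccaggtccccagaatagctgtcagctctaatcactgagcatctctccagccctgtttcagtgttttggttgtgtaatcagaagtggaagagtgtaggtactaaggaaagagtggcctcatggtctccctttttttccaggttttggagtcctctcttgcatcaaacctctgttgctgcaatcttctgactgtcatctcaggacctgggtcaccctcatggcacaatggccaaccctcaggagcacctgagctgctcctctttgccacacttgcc
Map2k4, minus strand, chr11:65788310-65788609: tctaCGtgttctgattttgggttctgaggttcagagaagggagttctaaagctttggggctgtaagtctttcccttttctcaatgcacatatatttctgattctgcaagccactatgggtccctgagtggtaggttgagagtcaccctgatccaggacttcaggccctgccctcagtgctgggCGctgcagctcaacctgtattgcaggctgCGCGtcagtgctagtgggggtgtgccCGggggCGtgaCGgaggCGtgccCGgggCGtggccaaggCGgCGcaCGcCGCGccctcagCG
Mapk9, plus strand, chr11:49846501-49846800: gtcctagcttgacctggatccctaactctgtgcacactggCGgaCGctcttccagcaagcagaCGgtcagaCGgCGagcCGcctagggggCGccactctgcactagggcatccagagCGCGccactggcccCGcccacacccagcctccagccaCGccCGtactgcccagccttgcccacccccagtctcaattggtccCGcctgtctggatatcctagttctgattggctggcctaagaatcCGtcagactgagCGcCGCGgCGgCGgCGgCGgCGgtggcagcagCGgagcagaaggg
These windows hold 17, 0, 16 and 23 CpGs for Nmnat2, Map3k13, Map2k4 and Mapk9, and the window at the other Map2k4 start holds 3, where the median of 32851 windows of this table is 7. DNA methylation was not measured in these libraries. None of these 4 windows held an AP-1 site (TGANTCA), a cAMP response element (TGACGTCA) or the left part of the REST element (TTCAGCACC), each searched on both strands, where 7.81%, 1.79% and 0.371% of all windows hold them. The absence of a match concerns these letters in these windows. Among the uncalled genes, the windows held 15 CpGs for Sarm1, 28 and 28 for Nmnat1, 36 for Nampt and 19 and 23 for Map3k12. Those of Mapk8 held 45 and 1, and those of Mapk10 held 8 and 2. CpG counts above the median of 7 were thus not particular to the called genes.

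Around the 10 genes, 124 further genes of the routes were listed, of which 113 were tested, 13 rose and 23 fell (31.9%, beside 24.0% of all tested genes). Their median log2 fold change was -0.13. These lists were chosen with earlier results of these data known. With at least 2 CPM in at least 3 libraries, 12 of 105 rose and 23 fell, where 27.2% of all tested genes were called. With upper-quartile scaling 17 rose and 17 fell, where of all tested genes 2512 rose and 1378 fell. With the replicate block 18 of 113 rose and 32 fell, where 31% of all tested genes were called. Without shControl replicate 1, 4 of 115 rose and 13 fell (12.2% of all tested genes called). Without shControl replicate 3, 5 of 115 rose and 12 fell (10.9% of all). Without shUHRF1 replicate 3, 3 of 113 rose and 11 fell (13.7% of all). The 7 lists had 4 of 12, 5 of 18, 8 of 18, 5 of 15, 5 of 13, 2 of 12 and 7 of 25 called, in the order below. Each stands beside 24.0% of all tested genes called, with 11.6% higher and 12.4% lower, and no list was tested as a set.

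Of 20 genes of NAD synthesis and use, 12 were tested, 3 rose and 1 fell (median log2 fold change 0.32). Slc25a51, the carrier that brings NAD into mitochondria, fell to 41.8 ± 3.76 CPM in shUHRF1, against 131 ± 15.3 CPM in shControl (log2 fold change -1.64 ± 0.13, SE, edgeR adjusted p = 0.000516). Parp1, a nuclear enzyme that consumes NAD at DNA breaks, rose to 266 ± 29.8 CPM in shUHRF1, against 168 ± 8.30 CPM in shControl (0.66 ± 0.12, adjusted p = 0.00714). The NAD-dependent deacetylase gene Sirt1 had 22.3 ± 4.73 CPM in shUHRF1 and 14.3 ± 1.44 CPM in shControl (0.65 ± 0.18, adjusted p = 0.0382), and Naprt, which makes NAD from nicotinic acid, had 2.27 ± 0.384 CPM in shUHRF1 and 1.09 ± 0.196 CPM in shControl (1.05 ± 0.30, adjusted p = 0.0365). Both calls were lost without any 1 of shUHRF1 replicates 1 and 3 and shControl replicates 1, 2 and 3 (edgeR adjusted p of 0.0748 to 0.141). Naprt also lost its call with no filter on low counts (0.075) and on library pairs 1 and 3 (0.0721). It was not tested under the stricter filter. Of the exonic bases of Naprt, 11.8% are shared with the abundant Eef1d, so its count is uncertain. Nmnat3, the remaining NMNAT gene, was under the filter, with 41, 7 and 27 reads in shUHRF1 and 2, 3 and 1 reads in shControl. The list had 5 higher and 2 lower of 20 with no filter on low counts (13.9% of all tested genes called). It had 4 higher and 2 lower of 12 with the replicate block (31% of all). It had 1 higher and 1 lower without shControl replicate 1 (12.2% of all), shControl replicate 3 (10.9%) or shUHRF1 replicate 3 (13.7%).

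Of 18 genes of NMNAT2 turnover and axon degeneration, 2 rose and 3 fell, with 13 not called (median -0.039). Fbxo45, a subunit of the ubiquitin ligase that removes NMNAT2, fell to 74.0 ± 5.71 CPM in shUHRF1, against 107 ± 0.117 CPM in shControl (log2 fold change -0.53 ± 0.10, SE, edgeR adjusted p = 0.00976). Mycbp2, the large subunit of that ligase and itself a brake on DLK, was chosen for mention after its values were seen, with 614 ± 35.7 CPM in shUHRF1 and 570.4 ± 46.1 CPM in shControl (adjusted p = 0.541). The protease gene Capn2, a calpain that cleaves the axonal cytoskeleton, fell by 0.92 ± 0.19 on the log2 scale (adjusted p = 0.0121). Of its exonic bases, 27.1% lie opposite the antisense gene Gm37885. Ube4b, the ubiquitin ligase gene partly fused to Nmnat1 in the slow Wallerian degeneration mouse, fell by 0.61 ± 0.14 (adjusted p = 0.0168), and the adaptor gene Tirap rose by 0.94 ± 0.21 (adjusted p = 0.0157). Stmn2, an axonal tubulin-binding protein that is lost from axons early after injury and is a JNK substrate, had 2601, 2666 and 3456 CPM in shUHRF1 and 3306, 2117 and 3365 CPM in shControl. Its groups overlapped (log2 fold change -0.011 ± 0.21, SE, adjusted p = 0.979). Ube4b lost its call without shUHRF1 replicate 3 (0.0645), shControl replicate 1 (0.0615) or shControl replicate 3 (0.0705), and Tirap lost it there (0.0547, 0.063 and 0.0613), without shControl replicate 2 (0.051) and on library pairs 1 and 3 (0.0797). The list had 3 higher and 5 lower with the replicate block (31% of all tested genes called). It had 2 calls, both lower, without shUHRF1 replicate 3 (13.7% of all), shControl replicate 1 (12.2%) or shControl replicate 3 (10.9%).

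Of 18 regulators upstream of DLK, 3 rose and 5 fell (median -0.13). Hsp90aa1, a chaperone gene of the HSP90 pair on which DLK depends, fell to 119 ± 25.6 CPM in shUHRF1, against 300.2 ± 5.25 CPM in shControl (log2 fold change -1.34 ± 0.16, SE, edgeR adjusted p = 0.00177), whereas its paralogue Hsp90ab1 had 1658 ± 168 CPM in shUHRF1 and 1645 ± 305 CPM in shControl (adjusted p = 0.970). The kinesin gene Kif3c fell by 0.67 ± 0.14 (adjusted p = 0.0115, with 35.3% of its exonic bases opposite the antisense gene 1110002L01Rik) and the calcium-dependent kinase gene Camk2b by 0.60 ± 0.13 (adjusted p = 0.0138) on the log2 scale. The GDNF receptor kinase gene Ret rose to 565 ± 105 CPM in shUHRF1, against 242 ± 87.4 CPM in shControl (1.22 ± 0.28, adjusted p = 0.017). Mink1 and Tnik, kinases of the MAP4K family that act above DLK, rose by 0.49 ± 0.13 and 0.50 ± 0.14 (adjusted p of 0.0288 and 0.0357), and Map4k4 of the same family had 0.24 ± 0.17 (adjusted p = 0.348); Hsp90ab1, Mink1, Tnik and Map4k4 were added after their values were seen. Camk2b and Ret lost their calls without shUHRF1 replicate 3 (0.0591 and 0.0543) or shControl replicate 3 (0.0599 and 0.0502). The list had 2 calls, both lower, without shUHRF1 replicate 3 (13.7% of all tested genes called) or shControl replicate 3 (10.9%). It had 1 higher and 3 lower without shControl replicate 1 (12.2% of all). Mink1 and Tnik lost their calls without any 1 of shUHRF1 replicates 1 and 3 and shControl replicates 1, 2 and 3.

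Of 15 other MAP3K genes that can feed JNK, 1 rose and 4 fell (median -0.33). Map3k5, which encodes the oxidant-sensitive kinase ASK1, rose to 81.4 ± 16.9 CPM in shUHRF1, against 37.6 ± 5.12 CPM in shControl (log2 fold change 1.11 ± 0.18, SE, edgeR adjusted p = 0.00502). Taok2, a kinase of the TAO family, fell to 80.4 ± 3.17 CPM in shUHRF1, against 188 ± 24.6 CPM in shControl (-1.23 ± 0.12, adjusted p = 0.00096). Its relative Taok1 fell by 0.41 ± 0.10 (adjusted p = 0.0255) and Map3k7, which encodes TAK1, by 0.52 ± 0.11 (adjusted p = 0.0137) on the log2 scale. Taok1 lost its call with upper-quartile scaling (0.0957), on library pairs 1 and 3 (0.0731) and without any 1 of shUHRF1 replicate 3 and shControl replicates 1, 2 and 3 (0.0647 to 0.0811), and Map3k7 on library pairs 1 and 3 (0.0553) and without shControl replicate 3 (0.0587). The list had 1 higher and 2 lower with upper-quartile scaling (25% of all tested genes called), without shUHRF1 replicate 3 (13.7%) and without shControl replicate 1 (12.2%). It had 1 higher and 1 lower without shControl replicate 3 (10.9% of all) and on library pairs 1 and 3 (19.4%).

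Of 14 genes for other MAP2K, p38 kinases and JNK scaffolds, 13 were tested, 5 fell and 8 were not called (median -0.47). Mapk8ip1 and Mapk8ip2, which encode the JIP scaffolds that hold DLK or related kinases with JNK, fell to 445 ± 70.6 and 568 ± 58.5 CPM in shUHRF1, against 838 ± 160.2 and 805 ± 93.8 CPM in shControl (log2 fold changes of -0.91 ± 0.18 and -0.50 ± 0.13, SE, edgeR adjusted p of 0.0101 and 0.0312). Mapk14 and Mapk12, which encode p38 kinases, fell by 0.91 ± 0.13 and 0.86 ± 0.19 (adjusted p of 0.00347 and 0.0155). Map2k7, the other kinase that activates JNK and chosen for mention after its values were seen, had 64.9, 44.1 and 50.3 CPM in shUHRF1 and 42.6, 31.6 and 41.9 CPM in shControl. Its groups were separate, in the direction opposite to Map2k4, but it was not called (log2 fold change 0.46 ± 0.18, SE, adjusted p = 0.104, and 0.0276 with the replicate block). Its count is uncertain, since 35.2% of its exonic bases are shared with the gene model Gm49320. Mapk8ip2 lost its call with upper-quartile scaling (0.0672) and without shUHRF1 replicate 3 (0.104), shControl replicate 1 (0.0992) or shControl replicate 3 (0.0997), and Mapk12 without shUHRF1 replicate 3 (0.0571) or shControl replicate 3 (0.0686). The list had 1 higher and 7 lower with the replicate block (31% of all tested genes called) and 2 higher and 3 lower with upper-quartile scaling (25%). It had 3 lower without shControl replicate 1 (12.2% of all), and 2 lower without shControl replicate 3 (10.9%) or shUHRF1 replicate 3 (13.7%).

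Of 12 JNK phosphatase genes, 2 fell and 10 were not called (median -0.10). Dusp10, whose product prefers JNK and p38, fell to 31.8 ± 9.17 CPM in shUHRF1, against 72.1 ± 17.6 CPM in shControl (log2 fold change -1.18 ± 0.25, SE, edgeR adjusted p = 0.0131), and Ppm1a to 170.2 ± 9.25 CPM in shUHRF1, against 223 ± 7.72 CPM in shControl (-0.39 ± 0.10, adjusted p = 0.0274). Dusp10 lost its call without shUHRF1 replicate 3 (0.0549) or shControl replicate 1 (0.0504). Ppm1a lost it with upper-quartile scaling (0.093), on library pairs 1 and 3 (0.0857) and without any 1 of shUHRF1 replicates 1 and 3 and shControl replicates 1, 2 and 3 (0.051 to 0.103).

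At the output of the route, 25 of 27 JNK substrates and injury-response genes were tested, 4 rose and 3 fell (median 0.022). Jun, the substrate that names the kinases, had 40.01, 47.5 and 53.5 CPM in shUHRF1, against 90.9, 50.8 and 124 CPM in shControl. Only shControl replicate 2 came into the shUHRF1 range, and the log2 fold change was -0.92 ± 0.29 (SE) with an edgeR adjusted p of 0.0543. Jun passed with DESeq2 (adjusted p = 0.0104), with the replicate block (0.0306), on library pairs 1 and 3 (0.0183), with no filter on low counts (0.00154) and without shControl replicate 2 (0.00844). Atf3, the transcription factor gene most used as an injury mark in these neurons, had 9.56, 1.83 and 22.1 CPM in shUHRF1 and 5.69, 12.2 and 9.66 CPM in shControl. The shUHRF1 libraries lay on both sides of the shControl range (log2 fold change 0.29 ± 0.70, SE, adjusted p = 0.807, and -0.69 without shUHRF1 replicate 3). The regeneration gene Sprr1a had 0 reads in every library.

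The growth cone gene Gap43 fell to 484 ± 147 CPM in shUHRF1, against 1770.4 ± 138 CPM in shControl (log2 fold change -1.87 ± 0.23, SE, edgeR adjusted p = 0.00181). The AP-1 gene Jund fell to 62.0 ± 16.9 CPM in shUHRF1, against 138 ± 31.9 CPM in shControl (-1.16 ± 0.24, adjusted p = 0.0122, with 52.6% of its exonic bases opposite the antisense gene Gm11175). Its relative Junb rose to 13.4 ± 6.69 CPM in shUHRF1, against 3.50 ± 0.182 CPM in shControl (1.94 ± 0.35, adjusted p = 0.00724), although 7.52% of its exonic bases lie opposite exons of the far more abundant Prdx2. Bcl2l11, which encodes the pro-death protein BIM, had 5.38 ± 1.21 CPM in shUHRF1 and 2.47 ± 0.488 CPM in shControl (1.12 ± 0.27, adjusted p = 0.0205), a call lost without shUHRF1 replicate 3 (0.0802), shControl replicate 1 (0.0785) or shControl replicate 2 (0.0659). The list had 6 higher and 5 lower with the replicate block (31% of all tested genes called). It had 1 higher and 2 lower without shUHRF1 replicate 3 (13.7% of all) or shControl replicate 1 (12.2%). Without shControl replicate 2 it had 1 higher and 3 lower (17.7% of all).

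**Figure D5:**
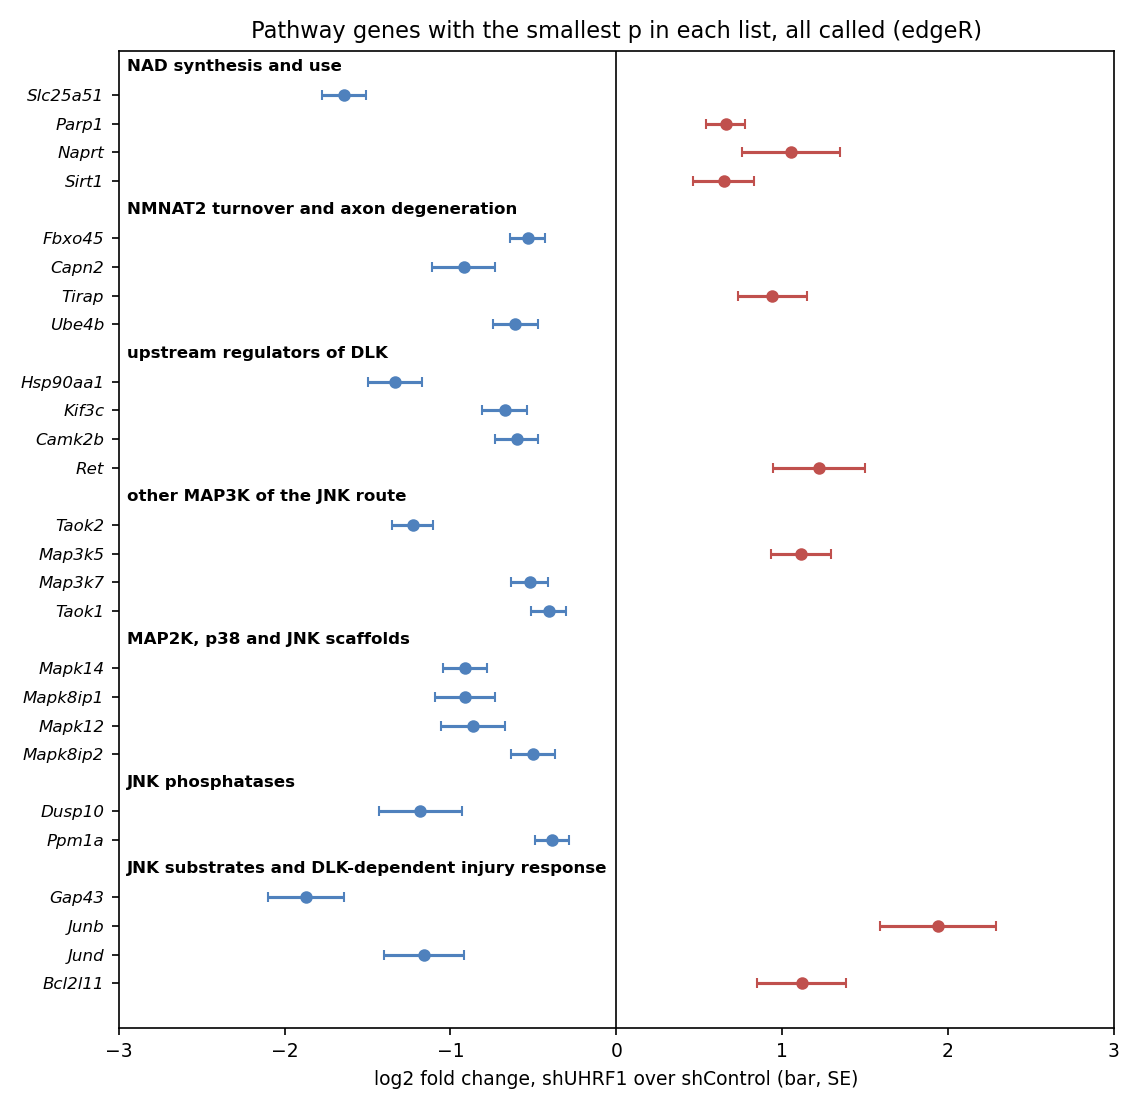
Log2 fold change of shUHRF1 over shControl (x axis, bar SE) for the up to 4 called genes with the smallest p in each list of further pathway genes. Gap43 at -1.87 and Slc25a51 at -1.64 lie lowest and Junb at 1.94 highest, and all genes shown for the MAP2K, p38 and scaffold list and for the phosphatase list lie below 0.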

How the data were processed

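The authors deposited 6 tables, 1 per library, of raw read counts per gene. FastQC, STAR, HTSeq, DESeq2 and the mm10 build appear in the submitters' processing notes, without versions, and the annotation release and strandedness are not given there. The 5 summary lines per table, which name no gene, held 8.43% to 17.2% of entries outside genes, 2.12% to 2.27% ambiguous and 30.5% to 37.3% not uniquely aligned, and were left out. Symbols and coordinates came from GENCODE M21 on GRCm38, with 47224 identifiers matched and 419 not.

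From the deposited counts, edgeR 4.0.16 (R 4.3.3) fitted all genes left by filterByExpr with TMM scaling, no block, a two-sided quasi-likelihood F test and Benjamini-Hochberg adjustment over 15573 genes. CPM is on TMM-scaled library sizes. Standard errors and 95% intervals derive from the F statistic and its degrees of freedom. Ratios had 0.5 reads added. No 2 libraries of a group agreed within sampling noise.

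Same-numbered libraries deviated alike (correlations of 0.321, 0.282 and 0.457 over genes at a mean of at least 5 CPM), so the numbers were taken to pair the libraries, as inferred from the data. The reported p-values, intervals and permutation tests leave this pairing out, except where the block is named. Blocked values stand beside results whose call they change or whose count of calls they move by over 1.5 times, and beside some others.

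Members and lists were chosen with earlier results of these data known. The rule named the 10 genes, Uhrf1, Jun, Atf3, Stmn2 and, per list, up to 4 called genes of smallest p. Alternatives were RLE and upper-quartile factors, DESeq2 1.42.0, limma-voom (limma 3.58.1), no filter, a stricter filter (2 CPM or more in 3 or more libraries), the block, pairs 1 and 3 alone, and each library left out.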

Additional observations from a re-analysis of the deposited data

How the results depend on the processing

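Of the 10 genes, Map3k13 and Map2k4 were called in all 14 other settings, Mapk9 in 12 and Nmnat2 in 7, and none of these 4 changed sign. With 1 library left out, 2 to 4 of the 10 genes were called and 1768 to 3888 of all genes (10.9% to 24.2% of those tested). Of all genes, 822 to 1814 were called higher and 946 to 2074 lower. With the replicate block 4820 genes were called (31% of those tested), with 2380 higher and 2440 lower, and no call among the 10 genes changed. The block left the mean differences of ratios and shares as they were, with sign-flip p of 0.25 or more, the smallest 3 pairs allow. Reads not divided by exonic length gave a Mapk9 share lower by 10.5 percentage points in shUHRF1.

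The fold changes that turned sign were all uncalled. Sarm1 had -0.031 with no filter and -0.099 on pairs 1 and 3. Nmnat1 had 0.087 with upper-quartile factors, 0.0057 with the stricter filter and 0.058 on pairs 1 and 3. Nampt had -0.010 with no filter, and Map3k12 had 0.11 with upper-quartile factors and 0.029 with the stricter filter. Atf3 had -0.17 with limma-voom and -0.025 with the block. Stmn2 had 0.12 with upper-quartile factors, 0.0095 with limma-voom, 0.037 with the stricter filter and 0.0085 with the block. Leaving out 1 library gave -0.085 to 0.050 for Sarm1, -0.12 to 0.13 for Nampt, -0.14 to 0.058 for Map3k12, -0.027 to 0.12 for Mapk8, -0.69 to 0.76 for Atf3, -0.21 to 0.091 for Stmn2 and -0.11 to 0.17 for the log2 ratio of Nampt to Sarm1. For the lost calls and sign changes the cause was not tested. Uhrf1, Nmnat3, Naprt and Nmnat1 had few reads, and whether this limited their precision was not tested.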

Other observations

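The 10 genes differed in how much same-numbered libraries shared. Mapk10 was highest in replicate 1 and lowest in replicate 2 of both groups, at 399 and 242 CPM in shUHRF1 and 302 and 214 CPM in shControl. Nampt was highest in replicate 1 of both groups, and its log2 ratio of shUHRF1 to shControl within pairs 1, 2 and 3 was 0.11, -0.24 and 0.16. For Map2k4 these ratios were -0.77, -0.84 and -0.78, the closest agreement among the 4 called genes, and for Map3k13 they were 1.10, 0.68 and 0.83.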
